A study of Mus musculus with 12 samples.

Results

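The heat shock and unfolded protein response genes followed here are 10 mouse genes: the cytosolic chaperones and co-chaperones Hspa1a, Hspa1b, Hsp90aa1, Hsph1 and Dnajb1, the endoplasmic reticulum (ER) proteins Hspa5 and Herpud1, and the transcription factors Xbp1, Atf4 and Ddit3. They were taken by symbol from a list of stress genes that was chosen with earlier results of these data known. No measured value was used as a rule for the choice. The members make up 10 of the 29542 genes, or 31 of the transcripts, quantified in each library. All 10 passed the filter on low counts and were among the 14431 genes tested. The libraries hold RNA of ILC2s (group 2 innate lymphoid cells), tissue lymphocytes that make type 2 cytokines but carry no antigen receptor; they had been sorted out of skin-draining lymph nodes of mixed bone marrow chimeras. The study asked how ILC2s differ when they arise without Rag1, a recombinase gene needed for antigen receptor assembly. 4 groups of 3 libraries were compared: knockout-labelled cells (Rag1 KO, congenic marker CD90.2) at 20 weeks after transplant, WT cells (CD90.1) at 20 weeks, knockout-labelled cells at 8 weeks and WT cells at 8 weeks. Every group shared the C57BL6 strain label and the same kind of host, a CD45.1 congenic mouse given 950 cGy and equal shares of Rag1-/- marrow (CD45.2) and WT marrow (CD90.1). All hosts were also given IL-33, the alarmin cytokine that expands ILC2s, on each of 7 days before the cells were taken, at 30 ng per cheek and 240 ng into the peritoneum. The labels give neither the age of the mice nor whether replicates came from separate hosts, so the p-values reflect only the spread among these samples, which may be technical. For the later time the series text gives 12 weeks and the sample labels give 20 weeks, and the sample labels were followed.

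Heat shock proteins are chaperones that hold or refold unfolded proteins in the cytosol. Heat shock factor HSF1 binds heat shock elements in front of their genes and raises their transcription when unfolded protein accumulates. In the ER, unfolded protein draws the chaperone BiP, the product of Hspa5, away from the sensors PERK, IRE1 and ATF6. PERK raises translation of ATF4, which can switch on Ddit3 (CHOP), IRE1 splices the Xbp1 message, and ATF6 acts on ER stress elements. Cells that secrete much protein, as cytokine-producing lymphocytes do, use this pathway, and both pathways are also known to respond to the handling of cells.

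Estimated reads per library ran between 11433625 and 32529806. The 12 genes listed as ILC2 markers, among them Gata3, Il1rl1, Klrg1 and Il7r, summed to 7904 to 9534 CPM (counts scaled to library size) in the libraries of 20 weeks and 5774 to 8381 CPM in those of 8 weeks. Rag1 had 0.374, 0.528 and 0.468 CPM in the knockout-labelled libraries of 20 weeks, 0 CPM in all WT libraries of that time, 0, 0.723 and 0.979 CPM in the knockout-labelled libraries of 8 weeks, and again 0 CPM in all WT libraries. Rag1 reads, at most 18.4 in a library, thus appeared in 5 of 6 libraries labelled knockout and in none of the 6 labelled WT. The reads were not placed within the gene, and whether the labels are right was not tested. Every genotype direction given here rests on those labels. On principal components of all tested genes, WT replicate 2 of 8 weeks lay far from the rest along the first axis, and knockout-labelled replicate 3 of 8 weeks along the second. That knockout-labelled library gave 24.5% of its reads to its 10 leading genes, where the others gave 8.85% to 15.0%. The labels hold no dates of harvest or sequencing, and time cannot be told apart from a batch that followed it.

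Per unit of transcript length, the ER genes dominated the list. Hspa5, the ER chaperone BiP, had the highest median over the 12 libraries, 459 TPM, a unit that corrects for transcript length and library size (lowest 376, highest 659). Herpud1, an ER membrane protein of the degradation machinery, followed at a median of 271 TPM (195 to 467), and Hsp90aa1, the inducible cytosolic HSP90, at 149 TPM (102 to 537). The middle of the order held Atf4 at a median of 44.8 TPM, Dnajb1 at 41.0 TPM, Ddit3 at 16.7 TPM, Xbp1 at 14.1 TPM and Hsph1 at 7.91 TPM. The classical heat-inducible HSP70 genes were barely present, with medians of 0.228 TPM for Hspa1a and 0.115 TPM for Hspa1b. The ranges of neighbours in this order overlapped throughout the order, except between Hsp90aa1 and Atf4 and between Hsph1 and Hspa1a.

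**Figure D1:**
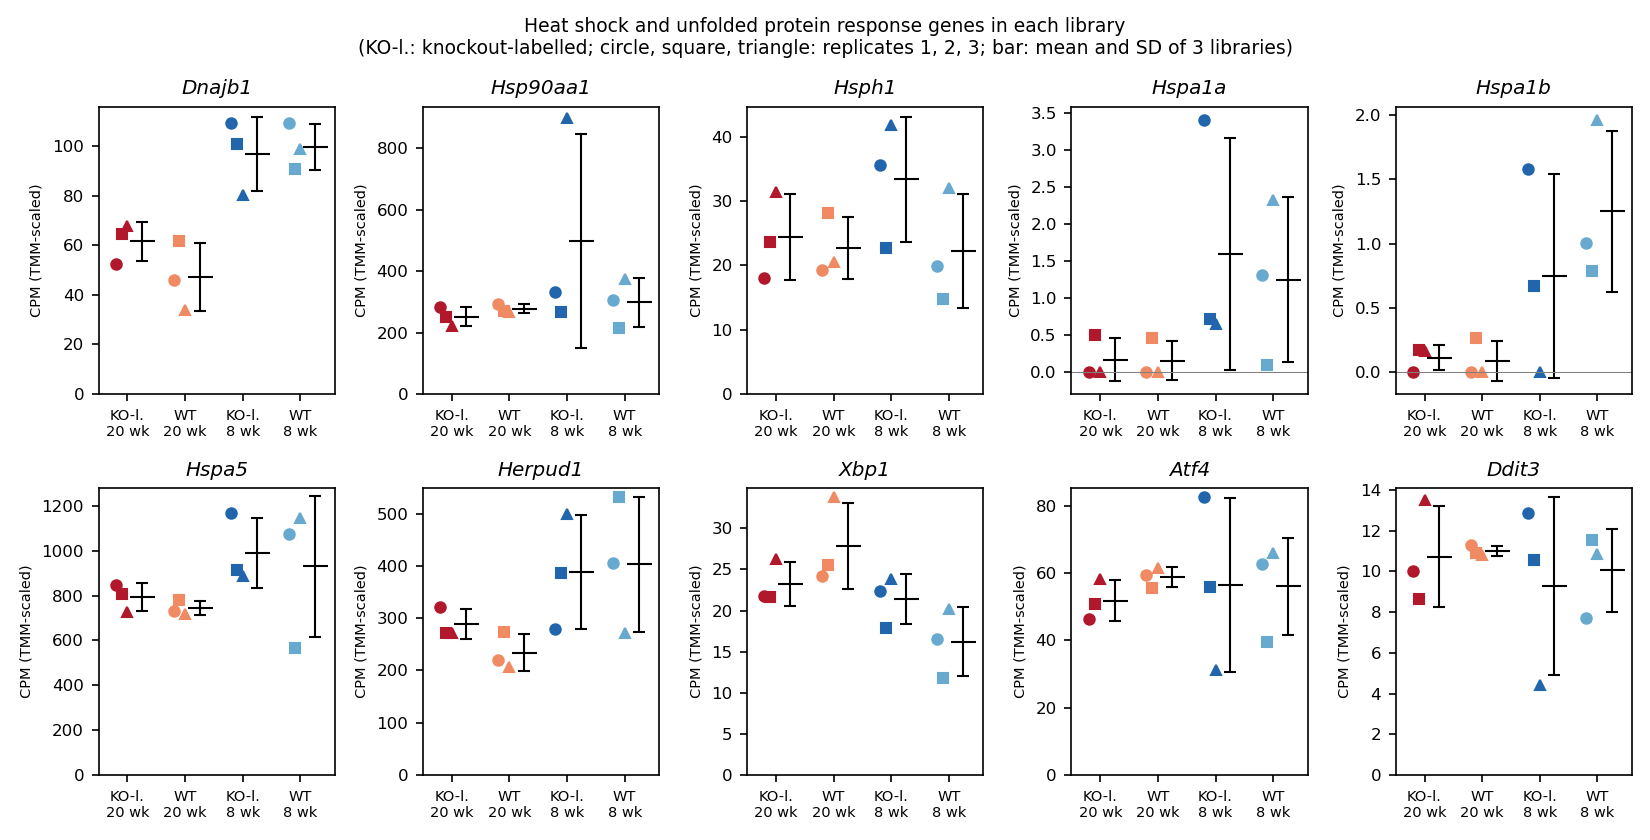
CPM, counts scaled to TMM library size, of each of the 10 genes in every library, by group; circles, squares and triangles are replicates 1, 2 and 3, and the bar is the mean with its SD (n = 3). The 6 libraries of 20 weeks lie below all 6 of 8 weeks for Dnajb1 (34.0 to 67.8 against 80.4 to 109 CPM), and a single knockout-labelled library of 8 weeks reaches 897 CPM of Hsp90aa1.

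Dnajb1 (ENSMUSG00000005483, chr8:83608193-83612653, plus strand), the HSP40 co-chaperone that delivers clients to HSP70, was lower at 20 weeks than at 8 weeks, and no other member passed edgeR's test in this or the other 6 comparisons. Its levels were 52.5, 64.4 and 67.8 CPM in knockout-labelled cells at 20 weeks, 46.0, 61.5 and 34.0 CPM in WT cells at 20 weeks, 109, 101 and 80.4 CPM in knockout-labelled cells at 8 weeks, and 109, 90.7 and 98.9 CPM in WT cells at 8 weeks. All 6 later libraries lay below all 6 earlier ones, and within each time the genotypes overlapped. Group means were 61.6 ± 8.01 CPM in knockout-labelled and 47.2 ± 13.8 CPM in WT cells at 20 weeks, against 96.9 ± 14.9 CPM in knockout-labelled and 99.6 ± 9.31 CPM in WT cells at 8 weeks (SD, n = 3 each). The log2 fold change of 20 weeks over 8 weeks, averaged over genotypes, was -0.87 (SE 0.16; adjusted p = 0.0181 in edgeR's quasi-likelihood test with Benjamini-Hochberg adjustment over all genes). Within genotypes it was -0.66 (SE 0.22, adjusted p = 0.462) in knockout-labelled and -1.08 (SE 0.22, adjusted p = 0.0617) in WT cells, and the difference between the 2 was not past the test (0.42, SE 0.31, adjusted p = 1.00). The averaged call held in 12 of 19 alternatives, with log2 values between -0.99 and -0.78 and adjusted p between 3.24e-05 and 0.0563. It was lost with the thread number of the quantification as a covariate (0.0563) and without any single one of 6 libraries, namely knockout-labelled replicates 1, 2 and 3 and WT replicate 1 of 20 weeks, and knockout-labelled replicate 2 and WT replicate 1 of 8 weeks (0.0518 to 0.0554).

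Set against all genes, 1 of 10 members called by time averaged over genotypes stands beside 2.90% of all genes tested (419 of 14431). Of the members, 1 had groups of 6 libraries that did not overlap, against 4.09% of all genes. At an unadjusted p under 0.05 there were 5 members, Xbp1 higher and Hspa1a, Hspa1b, Dnajb1 and Herpud1 lower, against 18.6% of all genes. The fitted median over the 10 was -0.43, beside 0.02 over all genes tested, and 8 of 10 estimates were negative. In knockout-labelled cells alone edgeR called 0 members (2 at an unadjusted p under 0.05, against 8.33% of all genes, and 0 by DESeq2), where it called 0.0624% of all genes. There, 3 members did not overlap between times, Hspa1a, Dnajb1 and Hspa5, each lower at 20 weeks, against 16.4% of all genes. In WT cells alone edgeR called 0 members (4 at an unadjusted p under 0.05, against 13.3% of all genes, and Dnajb1 by DESeq2), where it called 0.513% of all genes. There, 3 members did not overlap, Xbp1 higher and Hspa1b and Dnajb1 lower, against 19.3% of all genes. A share of 3 in 10 is a small count, and no test was made of it.

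Genotype left no called change in the 10 genes at either time. Averaged over times, 0 members were called by edgeR, by DESeq2 or at an unadjusted p under 0.05, where edgeR called 0.222% of all genes (32 of 14431). The log2 fold changes of knockout-labelled over WT cells lay between -0.24 (SE 1.03, Hspa1b) and 0.34 (SE 0.23, Hsph1), with a median of 0.11 beside 0.01 over all genes. At 20 weeks 0 members were called by either tool or at an unadjusted p under 0.05 (0.0554% of all genes by edgeR), and 0 members had genotypes that did not overlap, against 11.4% of all genes. Likewise at 8 weeks 0 members were called by either tool or at an unadjusted p under 0.05 (0.201% of all genes by edgeR, 29 genes), and 0 did not overlap, against 5.63%. With the replicate number as a block within each time, 15 genes and 0 members were called at 8 weeks. The genotype by time interaction called 0 members by either tool or at an unadjusted p under 0.05, beside 0.0970% of all genes. The standard errors bound how small a genotype difference could have been seen. For the 8 genes other than Hspa1a and Hspa1b they were 0.16 to 0.27 on the log2 scale averaged over times. They were 0.22 to 0.38 at each time and 0.31 to 0.53 in the interaction. A p that misses the threshold does not show that the genotypes were alike.

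**Figure D2:**
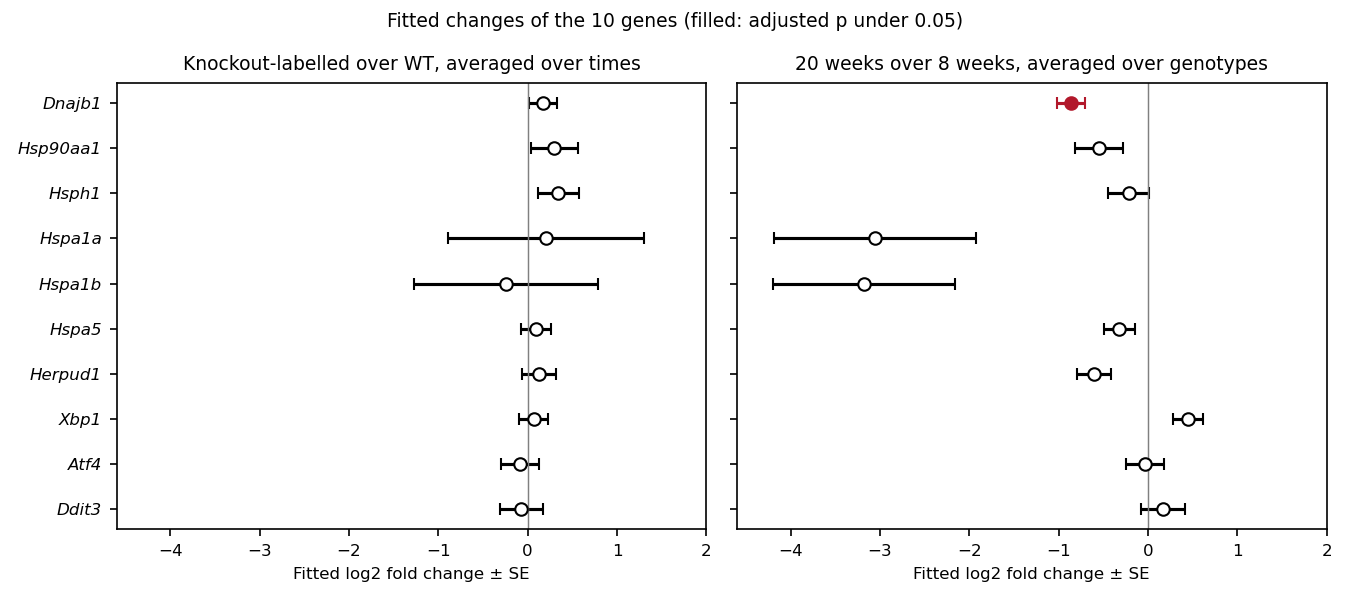
Fitted log2 fold changes with SE of the 10 genes for knockout-labelled over WT (left) and 20 weeks over 8 weeks (right), each averaged over the other factor. Filled points passed an adjusted p of 0.05: Dnajb1 by time (-0.87), and none by genotype.

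The promoters of the genes that the heat shock and ER results turn on are shown as RefSeq windows of 300 bases on GRCm38.p6, with 250 bases before the annotated start and 50 after it. Hspa1a and Hsph1 are shown for their heat shock element cores, Hspa5 for its ER stress element and Dnajb1 because it was the member called. Capitals mark matches to the heat shock core GAANNTTC or its inverted form TTCNNGAA, and in Hspa5 to the ER stress element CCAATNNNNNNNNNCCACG, searched on both strands.
Hspa1a, chr17:34972107-34972406, minus strand: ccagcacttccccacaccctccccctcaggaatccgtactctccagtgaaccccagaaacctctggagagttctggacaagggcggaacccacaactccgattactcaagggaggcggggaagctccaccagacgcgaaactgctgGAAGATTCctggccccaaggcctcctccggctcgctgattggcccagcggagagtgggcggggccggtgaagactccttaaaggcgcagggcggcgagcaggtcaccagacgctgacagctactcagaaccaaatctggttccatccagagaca
Hsph1, chr5:149636287-149636586, minus strand: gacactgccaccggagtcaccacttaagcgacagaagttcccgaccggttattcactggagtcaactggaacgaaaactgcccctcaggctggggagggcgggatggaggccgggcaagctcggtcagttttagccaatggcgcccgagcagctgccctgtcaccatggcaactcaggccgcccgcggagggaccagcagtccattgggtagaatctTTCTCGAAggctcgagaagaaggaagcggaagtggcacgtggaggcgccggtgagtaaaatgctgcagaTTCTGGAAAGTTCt
Hspa5, chr2:34771840-34772139, plus strand: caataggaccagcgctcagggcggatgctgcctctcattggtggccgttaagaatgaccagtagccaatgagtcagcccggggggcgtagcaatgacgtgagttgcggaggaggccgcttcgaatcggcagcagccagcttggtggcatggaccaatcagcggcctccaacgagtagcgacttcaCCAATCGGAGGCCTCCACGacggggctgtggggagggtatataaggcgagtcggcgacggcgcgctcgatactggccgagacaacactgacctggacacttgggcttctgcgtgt
Dnajb1, chr8:83607925-83608224, plus strand: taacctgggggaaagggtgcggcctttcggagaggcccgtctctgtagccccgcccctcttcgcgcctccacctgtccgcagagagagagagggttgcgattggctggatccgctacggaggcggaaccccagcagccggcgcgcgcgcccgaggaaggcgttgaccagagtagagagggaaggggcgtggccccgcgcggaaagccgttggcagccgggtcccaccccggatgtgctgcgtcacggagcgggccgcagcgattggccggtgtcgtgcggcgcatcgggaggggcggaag

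Windows were found for 9 of the 10 genes. Of 32851 RefSeq promoter windows of the same length, 7.86% held GAANNTTC and 8.52% held TTCNNGAA, while 0.119% held the ER stress element. Hspa1a and Hspa1b each held the heat shock core at position -104 relative to the start, and their windows were 98.7% identical (296 of 300 bases). The Hsph1 window shown held the inverted core at -33 and again at 36, where it overlapped a GAANNTTC match at 41. These positions depend on the start used, since Hsph1 has another annotated start, nearer to its gene body, whose window held the same 3 matches. In Hspa5 the ER stress element began at -65, and it was the sole member window with a match to these letters. Other forms of the element were not searched for. Neither window of Dnajb1 matched a heat shock core, and that says only that these letters are not in these windows. None of these matches was tested as a site.

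Hspa1a (ENSMUSG00000091971, chr17:34969190-34972156) and Hspa1b (ENSMUSG00000090877, chr17:34956436-34959238), the stress-inducible HSP70 genes on the minus strand of chromosome 17, had few reads in every group, 0 to 16.7 estimated reads of Hspa1a and 0 to 6.94 of Hspa1b in the libraries of 20 weeks, against 1.45 to 94.5 and 0 to 44.1 in those of 8 weeks. Hspa1a had 0, 0.498 and 0 CPM in knockout-labelled and 0, 0.464 and 0 CPM in WT cells at 20 weeks, against 3.41, 0.723 and 0.652 CPM in knockout-labelled and 1.31, 0.0988 and 2.33 CPM in WT cells at 8 weeks. Hspa1b had 0, 0.176 and 0.170 CPM in knockout-labelled and 0, 0.271 and 0 CPM in WT cells at 20 weeks, against 1.58, 0.675 and 0 CPM in knockout-labelled and 1.00, 0.790 and 1.96 CPM in WT cells at 8 weeks. For both genes the highest values were all at 8 weeks, but libraries of the 2 times overlapped when pooled over genotypes. In the 4 libraries of 20 weeks where Hspa1a was at 0, a count of 0 allows up to 3 reads, or 0.0864 to 0.216 CPM, counting error only. Since 67.2% of the 20-base k-mers of Hspa1a are also in Hspa1b, the split between the copies is uncertain, and they were also summed. Their sum was 0, 0.674 and 0.170 CPM in knockout-labelled and 0, 0.735 and 0 CPM in WT cells at 20 weeks, against 4.99, 1.40 and 0.652 CPM in knockout-labelled and 2.31, 0.889 and 4.29 CPM in WT cells at 8 weeks. Knockout-labelled replicate 3 of 8 weeks lay below the highest library of each 20-week group, so the times still overlapped. The log2 fold change of the sum by time was -3.16 (SE 1.00) and did not pass the test (adjusted p = 0.112), and by genotype it was 0.02 (SE 0.92, adjusted p = 1.00). For single genes the time estimates were -3.05 (SE 1.13, adjusted p = 0.167) for Hspa1a and -3.18 (SE 1.02, adjusted p = 0.115) for Hspa1b, and such fitted values of genes with few reads depend on the prior count. Leaving out a single library moved the estimate of Hspa1a to -5.53 (without knockout-labelled replicate 2 of 20 weeks) or -5.52 (without WT replicate 2 of 20 weeks) and that of Hspa1b to -5.28 (without WT replicate 2 of 20 weeks). DESeq2 called Hspa1b by time (adjusted p = 0.0409), and over its 19 alternatives the adjusted p ran between 0.0409 and 0.217.

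Hsp90aa1 (ENSMUSG00000021270, chr12:110690605-110702728, minus strand), the stress-inducible HSP90 chaperone, was even across libraries apart from a single high library. It had 282, 251 and 221 CPM in knockout-labelled and 294, 269 and 268 CPM in WT cells at 20 weeks, against 331, 266 and 897 CPM in knockout-labelled and 305, 215 and 376 CPM in WT cells at 8 weeks. The 897 CPM were in knockout-labelled replicate 3 of 8 weeks, one of the libraries that stood apart, and the other 11 libraries lay between 215 and 376 CPM, with the groups overlapping. Its log2 fold change by time in knockout-labelled cells was -0.98 (SE 0.38, adjusted p = 0.530) and became -0.24 (SE 0.16) without both libraries that stood apart. The difference by genotype at 8 weeks, 0.74 (SE 0.38, adjusted p = 1.00), changed sign to -0.18 (SE 0.17) without them. Of its 20-base k-mers 55.7% are shared with other genes, most with the pseudogene Gm12346, which was given 1.23 to 12.9 CPM.

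Hsph1 (ENSMUSG00000029657, chr5:149614287-149636376, minus strand), the HSP110 nucleotide exchange factor of HSP70, had 18.1, 23.7 and 31.5 CPM in knockout-labelled and 19.2, 28.2 and 20.5 CPM in WT cells at 20 weeks, against 35.6, 22.7 and 41.8 CPM in knockout-labelled and 20.0, 14.8 and 32.1 CPM in WT cells at 8 weeks. The highest library was again knockout-labelled replicate 3 and the lowest WT replicate 2, both of 8 weeks, and all groups overlapped. Neither time (-0.21, SE 0.23, adjusted p = 0.669) nor genotype (0.34, SE 0.23, adjusted p = 1.00) passed the test. Without both of those libraries the genotype estimate of Hsph1 was 0.15 (SE 0.22, adjusted p = 0.844). Single libraries also moved its estimates: by genotype to 0.23 when knockout-labelled replicate 3 of 20 weeks was left out and 0.52 when WT replicate 3 of 8 weeks was, and by time to between -0.34 and -0.0366.

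Hspa5 (ENSMUSG00000026864, chr2:34771970-34777547, plus strand), which encodes the main ER chaperone, had 847, 808 and 726 CPM in knockout-labelled and 731, 778 and 719.5 CPM in WT cells at 20 weeks, against 1169.5, 915 and 888 CPM in knockout-labelled and 1076, 567 and 1146 CPM in WT cells at 8 weeks. In knockout-labelled cells every later library lay below every earlier one, while in WT cells replicate 2 of 8 weeks was the lowest of all 12 libraries. The log2 fold change by time was -0.32 (SE 0.17, adjusted p = 0.341) over all libraries and -0.48 (SE 0.10, adjusted p = 0.0186) without both libraries that stood apart, and the adjusted p ran between 0.0186 and 0.606 over 19 alternatives. By genotype it was 0.09 (SE 0.17, adjusted p = 1.00).

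Herpud1 (ENSMUSG00000031770, chr8:94386438-94395377, plus strand), a target of the unfolded protein response in ER-associated degradation, had 322, 272 and 271 CPM in knockout-labelled and 219.7, 274 and 208 CPM in WT cells at 20 weeks, against 279, 386 and 499 CPM in knockout-labelled and 405, 531 and 272 CPM in WT cells at 8 weeks. The 4 highest libraries were all of 8 weeks, and the times overlapped in each genotype. Its log2 fold change by time was -0.61 (SE 0.19, adjusted p = 0.107), with an adjusted p between 0.0318 and 0.2803 over 19 alternatives. DESeq2 (adjusted p = 0.0318) and the fit without WT replicate 3 of 8 weeks (adjusted p = 0.0349) called it, and without both libraries that stood apart it was -0.37 (SE 0.15, adjusted p = 0.164). By genotype the value was 0.13 (SE 0.19, adjusted p = 1.00).

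Xbp1 (ENSMUSG00000020484, chr11:5520659-5525893, plus strand), whose message is spliced by IRE1, was the 1 member with a positive time estimate of over 0.2. It had 21.8, 21.6 and 26.3 CPM in knockout-labelled and 24.2, 25.5 and 33.8 CPM in WT cells at 20 weeks, against 22.4, 17.9 and 23.8 CPM in knockout-labelled and 16.6, 11.9 and 20.2 CPM in WT cells at 8 weeks. Every WT library of 20 weeks lay above every WT library of 8 weeks, while the knockout-labelled libraries of the 2 times overlapped. The log2 fold change by time was 0.78 (SE 0.24, adjusted p = 0.189) in WT and 0.12 (SE 0.23, adjusted p = 0.959) in knockout-labelled cells, and averaged over genotypes it was 0.45 (SE 0.17, adjusted p = 0.167). The difference between genotypes in this change was -0.66 (SE 0.33) and did not pass the test (adjusted p = 1.00), and by genotype averaged over times the value was 0.07 (SE 0.16, adjusted p = 1.00). Whether the message was spliced could not be read from these tables: the 26 bases that IRE1 removes, positions 818 to 843 of Xbp1-201 on chromosome 11, are in 3 of the 4 quantified transcripts and no listed transcript lacks them alone. They are shown in capitals, with 25 bases on each side.
Xbp1-201: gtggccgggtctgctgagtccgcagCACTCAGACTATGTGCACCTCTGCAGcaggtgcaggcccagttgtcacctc

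Atf4 (ENSMUSG00000042406, chr15:80255184-80257541) and Ddit3 (ENSMUSG00000025408, chr10:127290774-127296288), plus-strand genes for the transcription factors of the PERK branch, showed no difference past the test. Positions of these and the other members are on GRCm38. Atf4 had 46.4, 50.8 and 58.2 CPM in knockout-labelled and 59.4, 55.5 and 61.4 CPM in WT cells at 20 weeks, against 82.6, 55.7 and 31.1 CPM in knockout-labelled and 62.8, 39.5 and 65.8 CPM in WT cells at 8 weeks. Its 20-week libraries all lay within the spread of the 8-week ones, in which knockout-labelled replicate 1 was highest and replicate 3 lowest. Ddit3, the pro-apoptotic factor CHOP, had 10.02, 8.65 and 13.5 CPM in knockout-labelled and 11.3, 10.9 and 10.8 CPM in WT cells at 20 weeks, against 12.8, 10.6 and 4.40 CPM in knockout-labelled and 7.73, 11.6 and 10.8 CPM in WT cells at 8 weeks. The same knockout-labelled replicate 3 was lowest for Ddit3, and the groups overlapped. By time the log2 fold changes were -0.03 (SE 0.21, adjusted p = 0.960) for Atf4 and 0.17 (SE 0.24, adjusted p = 0.762) for Ddit3, and by genotype -0.08 (SE 0.21) and -0.07 (SE 0.24), both at an adjusted p of 1.00.

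The transcripts behind the gene sums were not even across libraries. Hspa5-205, a transcript annotated as retaining an intron, had 22.0, 27.2 and 23.0 TPM in knockout-labelled and 13.4, 9.92 and 13.4 TPM in WT cells at 20 weeks, against 75.3, 86.1 and 15.6 TPM in knockout-labelled and 34.5, 182.5 and 24.2 TPM in WT cells at 8 weeks. Its coding partner Hspa5-201 was at 75.2 TPM in WT replicate 2 of 8 weeks, and at 267 to 423 TPM in the other 11 libraries. That library gave 23.0% of its Hspa5 reads to intron-retaining transcripts, against 0.964% to 6.66% elsewhere. Hspa5-204, marked for nonsense-mediated decay, had 0 to 1.92 TPM in the 6 libraries of 20 weeks and 80.3, 73.4 and 0 TPM in knockout-labelled and 29.9, 14.2 and 0.384 TPM in WT cells at 8 weeks. Herpud1 gave 17.3% to 22.5% of its reads at 20 weeks and 14.4% to 28.1% at 8 weeks to a single intron-retaining transcript, with no order between the times. Restricting every gene to its coding transcripts left the time estimate of Dnajb1 at -0.85 (SE 0.15, adjusted p = 0.0248), Herpud1 at -0.56 (SE 0.18, adjusted p = 0.135) and Hspa5 at -0.23 (SE 0.20, adjusted p = 0.606).

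**Figure D3:**
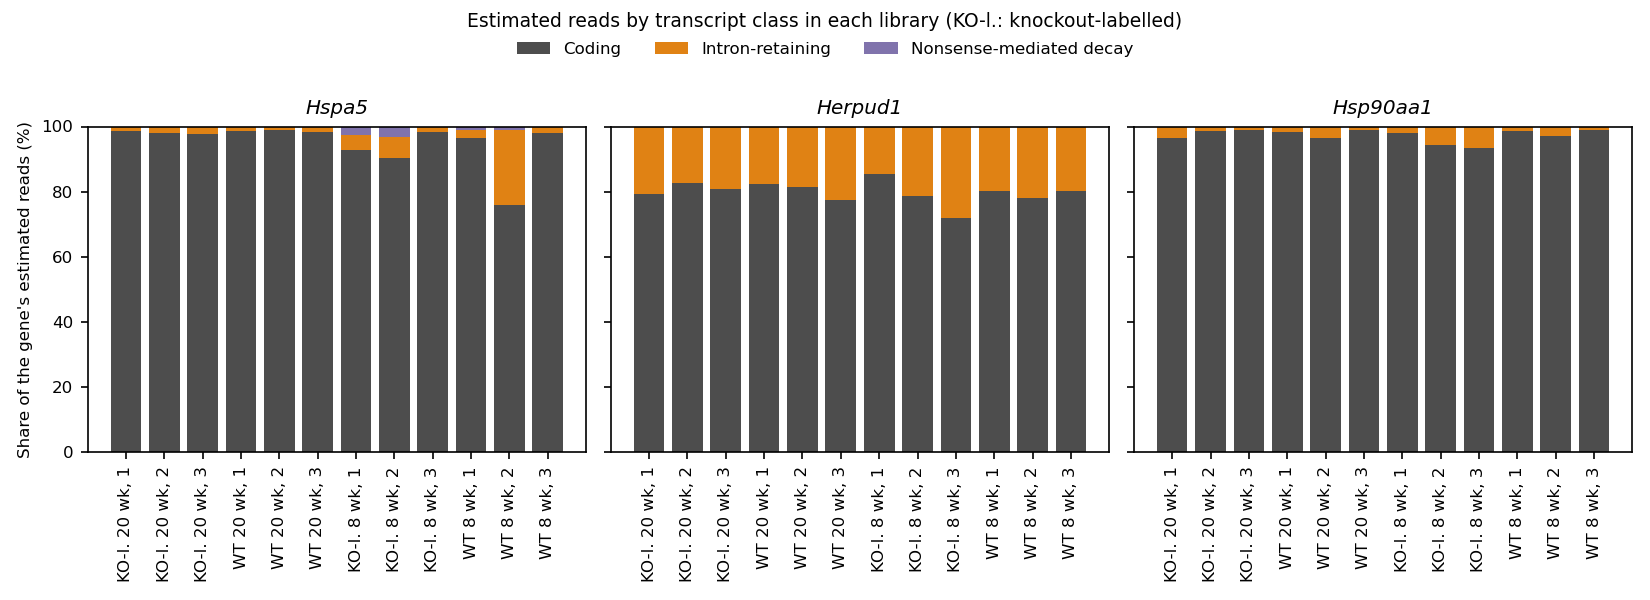
Share of the estimated reads of Hspa5, Herpud1 and Hsp90aa1 in each library that was assigned to coding, intron-retaining and decay-marked transcripts. WT replicate 2 of 8 weeks stands out for Hspa5, with 23.0% in intron-retaining transcripts, while Herpud1 held 14.4% to 28.1% in every library.

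The wider pathway was read from 4 lists that do not contain the 10 members. Among cytosolic chaperones and co-chaperones 3 of 31 tested genes were called by time, all lower at 20 weeks, against 2.90% of all genes in either direction. The list's median was -0.23. Hspa8, the constitutive HSP70, had 2872, 3075 and 2617 CPM in knockout-labelled and 1272, 1495 and 1420.3 CPM in WT cells at 20 weeks, against 3690.03, 4106 and 4654 CPM in knockout-labelled and 2549.8, 3584 and 2156 CPM in WT cells at 8 weeks. Within each genotype its later libraries all lay below its earlier ones. Its log2 fold change by time was -0.76 (SE 0.15, adjusted p = 0.0239) over all transcripts and -0.25 (SE 0.14, adjusted p = 0.387) with coding transcripts only. By genotype Hspa8 was at 0.81 (SE 0.15, adjusted p = 0.0612), and at 1.38 (SE 0.14, adjusted p = 0.00148) with coding transcripts only. It was also called by genotype by DESeq2 (adjusted p = 4.3e-05), without WT replicate 2 of 8 weeks (0.00747) and when that library and knockout-labelled replicate 3 were both left out (0.00228). Hspa8 lies on chromosome 9 (chr9:40800984-40810087), as does Thy1, the gene of the CD90 marker. Knockout-labelled and WT cells differ in that marker, so genotype cannot be told apart from donor differences linked to it, and this was not tested. The other 2 called by time were Hspa2, an HSP70 best known from the testis, at -0.63 (SE 0.13, adjusted p = 0.0269), and Hsp90ab1, the constitutive HSP90, at -0.79 (SE 0.17, adjusted p = 0.0340). Adjusted p ran up to 0.387, 0.0784 and 0.107 over the 19 alternatives of Hspa8, Hspa2 and Hsp90ab1, and the calls held in 9, 10 and 9 of them. Each of the 3 calls was lost without any single library of 20 weeks or without WT replicate 1 of 8 weeks, and those of Hspa8 and Hspa2 also without knockout-labelled replicate 2 of 8 weeks. The thread number as a covariate ended all 3 calls (adjusted p of 0.0818 for Hspa8, 0.0679 for Hspa2 and 0.107 for Hsp90ab1). The replicate block over all libraries ended that of Hsp90ab1 (adjusted p = 0.0577), as did the fit with coding transcripts only.

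Among 26 tested targets of the integrated stress response 2 were called by time, both lower at 20 weeks, against 2.90% of all genes in either direction. The list's median was -0.20. Ppp1r15a, the phosphatase subunit GADD34 that ends the response, had 59.7, 43.1 and 44.8 CPM in knockout-labelled and 49.4, 42.4 and 30.0 CPM in WT cells at 20 weeks, against 223, 208 and 85.4 CPM in knockout-labelled and 242, 146 and 160.3 CPM in WT cells at 8 weeks. The times did not overlap, the log2 fold change was -1.99 (SE 0.25, adjusted p = 0.00200), and the call held in 19 of 19 alternatives, at an adjusted p of at most 0.0141. In WT cells alone Ppp1r15a was also called, at -2.17 (SE 0.35, adjusted p = 0.0157), a call lost without any single WT library of 20 weeks or WT replicate 1 of 8 weeks (adjusted p up to 0.108) and in the libraries of 8 threads (0.558). Atf3, a stress-induced transcription factor, was at 0 in 5 of 6 libraries of 20 weeks, among them all 3 knockout-labelled ones, and between 0 and 1.98 CPM at 8 weeks. Its call (adjusted p = 0.0393) held in 6 of 19 alternatives and was lost without any single library but knockout-labelled or WT replicate 3 of 8 weeks (up to 0.104), with the replicate block (0.0907), with the thread covariate (0.0921) and with coding transcripts only (0.0554). Its fitted fold is not given because it depends on the prior count. Set at the bound that a floor of 3 counts per library allows, it left the list's median at -0.20.

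Of 14 stress sensors and regulators and of 29 ER chaperones and degradation factors, 0 were called by time or genotype in edgeR. By time 1 and 6 of them had an unadjusted p under 0.05, against 18.6% of all genes. The 2 genes with the smallest p by time in each of these lists were Eif2ak4, the amino acid sensor GCN2 (0.72, SE 0.29, adjusted p = 0.207), Eif2ak2, the RNA sensor PKR (-0.26, SE 0.13, adjusted p = 0.303), the disulfide isomerase Pdia6 (-0.46, SE 0.12, adjusted p = 0.0652) and the degradation factor Selenos (-0.41, SE 0.12, adjusted p = 0.0799). The 4 lists held 0 called genes by genotype averaged over times, with 7 of 100 tested at an unadjusted p under 0.05, against 3.71% of all genes. All 7 were higher in knockout-labelled cells. Positive estimates numbered 22 of 31 cytosolic chaperones, 9 of 14 sensors, 22 of 29 ER genes and 21 of 26 integrated stress response targets. Over all genes 7405 of 14431 were positive. The 2 genes with the smallest p in each list were Hspa8, given above, Hspa2 (0.43, SE 0.13, adjusted p = 0.745), the disulfide isomerase Pdia3 (1.08, SE 0.45), the amino acid transporter Slc7a5 (0.65, SE 0.22), the ER cofactor Sdf2l1 (0.73, SE 0.33), the leucine sensor Sesn2 (0.64, SE 0.29), the haem-regulated kinase Eif2ak1 (0.30, SE 0.19) and Eif2ak3, which encodes PERK (0.29, SE 0.23). Those after Hspa2 had an adjusted p of 1.00. Pdia3, highest in knockout-labelled replicate 3 of 8 weeks at 954 CPM, was at 0.56 without that library and 0.40 without both libraries that stood apart. Leaving out 1 library also moved Sdf2l1 to 0.39 (knockout-labelled replicate 2 of 20 weeks), and Sesn2 to 0.41 and Eif2ak1 to 0.16 (knockout-labelled replicate 1 of 8 weeks). By time, Eif2ak4 was at 0.47 (SE 0.20, adjusted p = 0.185) without both libraries that stood apart.

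**Figure D4:**
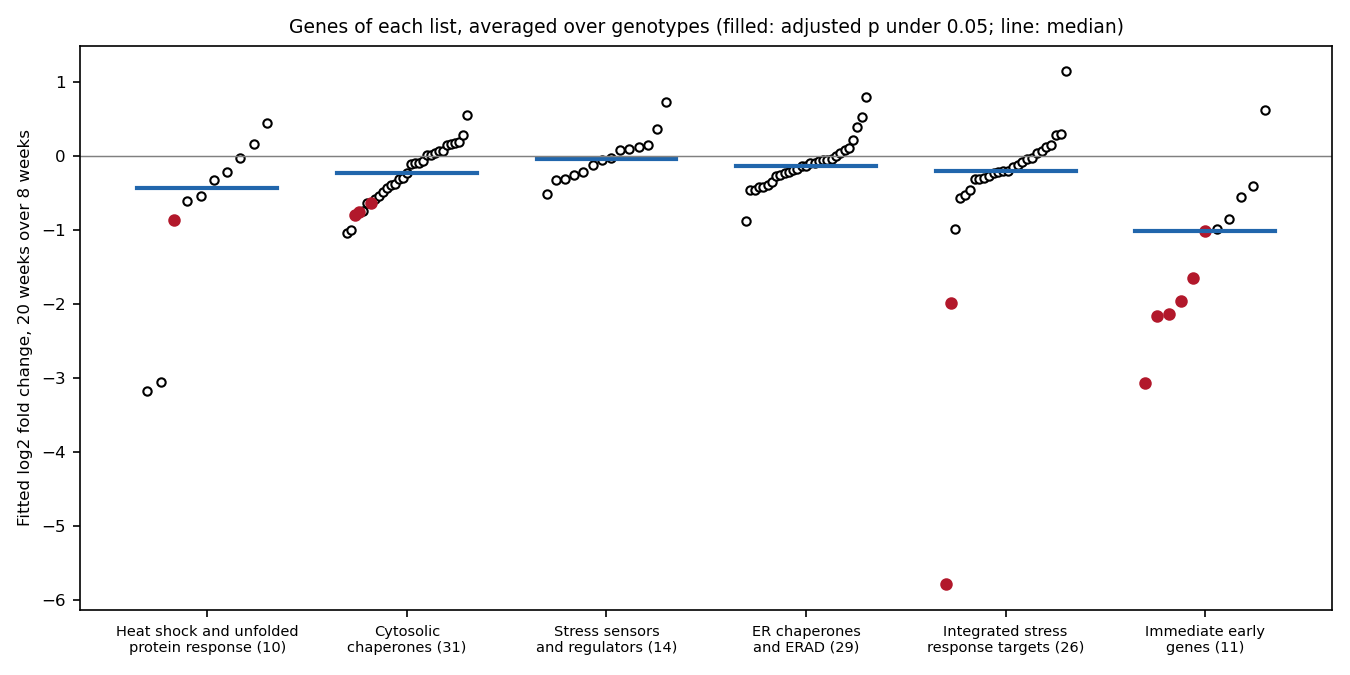
Fitted log2 fold change of 20 weeks over 8 weeks, averaged over genotypes, of each tested gene in the 10-gene list, the 4 pathway lists and the immediate early genes; filled points passed an adjusted p of 0.05 and the blue line is the median. Medians are -0.43 for the 10 genes and -1.01 for the immediate early genes. In the latter 6 of 11 genes were called lower, against 2.90% of all genes in either direction. The lowest point of all is Atf3, whose fitted value depends on the prior count.

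Immediate early genes, which are induced within minutes of many stimuli, the handling of cells among them, were mostly lower at 20 weeks. What induced them was not tested. Of 11 immediate early genes tested 6 were called lower (2.90% of all genes in either direction), 10 had negative estimates and the median was -1.01. Their summed level was 902 to 955 CPM in knockout-labelled and 793 to 1039.5 CPM in WT cells at 20 weeks, against 1355 to 2777 CPM in knockout-labelled and 2417 to 2555 CPM in WT cells at 8 weeks, with no overlap between the times. Fos had 181 to 227 CPM in the libraries of 20 weeks and 510 to 1232 CPM in those of 8 weeks. The part of these genes in the lower Dnajb1, Ppp1r15a, Atf3 and cytosolic chaperone levels was not tested. Of the 12 ILC2 markers 2 were called lower at 20 weeks, the cytokine gene Il13 (-0.98, SE 0.23, adjusted p = 0.0439) and the growth factor gene Areg (-1.57, SE 0.28, adjusted p = 0.0163), whose 0.890 to 2.65 CPM at 20 weeks lay below the 3.36 to 5.52 CPM at 8 weeks. The list as a whole did not fall, with 7 of 12 estimates positive and a median of 0.30. At an unadjusted p under 0.05, 4 markers were higher and 2 lower, against 18.6% of all genes. B cell and plasma cell genes summed to 166 to 335 CPM at 20 weeks and 171 to 590 CPM at 8 weeks, with the highest sum in knockout-labelled replicate 2 of 8 weeks. Of 9 tested, Cd79b was called lower (-0.77, SE 0.15, adjusted p = 0.0240). It had 67.04 to 103 CPM at 20 weeks, against 112 to 191 CPM at 8 weeks. Among the 9, 2 higher and 3 lower had an unadjusted p under 0.05, against 18.6% of all genes. By time in knockout-labelled cells alone 6 were lower at that measure (median -2.31), against 8.33% of all genes. In WT cells alone 3 were higher and 1 lower (median 0.70), against 13.3%. For knockout-labelled over WT, 4 were higher at 8 weeks (median 2.27, 3.62% of all genes) and 3 lower at 20 weeks (median -0.88, 2.08%). In the interaction 5 were lower (2.18% of all genes), and 0 were called in these comparisons. The myeloid list stayed between 6.54 and 24.7 CPM with S100a9 at 0 in all libraries. For T cell genes all 7 tested estimates of knockout-labelled over WT were negative. Of these genes 0 were called and 3 had an unadjusted p under 0.05, against 3.71% of all genes. Their summed level was 139 to 166 CPM in knockout-labelled and 187 to 208 CPM in WT cells at 20 weeks, and 145 to 180 CPM in knockout-labelled and 207 to 354 CPM in WT cells at 8 weeks, while Cd3e stayed between 0 and 3.75 CPM. The sums did not overlap at either time, as was so for 11.4% of all single genes at 20 weeks and 5.63% at 8 weeks. The part of these marker genes in the time results and in the genotype difference of Hspa8 was not tested. In these bulk samples fewer cells of a type and less RNA per cell cannot be told apart.

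Across the 12 libraries the genes outside all lists with the most similar log2 CPM to Hspa5 included the pseudogene Gm13461 (Pearson r = 0.952), Cops3 (0.950), Dscc1 (0.943) and Cdc6 (0.937). For Hspa1a they were Slc1a4 (0.940), Ran (0.904), Ubxn1 (0.900), Psmd7 (0.864) and Ifi214 (0.862). These correlations describe 12 libraries that share their time groups and depth, and Hspa1a and Slc1a4 were both at 0 in the same 4 of the 6 libraries of 20 weeks.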

How the data were processed

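The authors deposited, for each of 12 libraries, estimated counts and TPM per transcript made with sailfish 0.6.3 at a k-mer length of 20 on Ensembl release 76, per the file headers; the submitters' processing notes also name STAR 2.0.4b, bcl2fastq, featureCounts 1.4.5 and Subread without saying what each did. Libraries were depleted with Ribo-Zero, primed with random hexamers and amplified over 12 cycles, per the labels' protocols, although the labels give polyA RNA; strand is not stated. Deposited counts were summed per gene through GENCODE M21 (97.2% of 86127 transcripts matched; unmatched ones held 1.01% to 1.54% of reads) and rounded. CPM are TMM-scaled. In R 4.3.3, edgeR 4.0.16 (filterByExpr with a minimum count of 10) fitted the 4 groups in 1 quasi-likelihood model with 7 contrasts. A gene was called at an adjusted p under 0.05, and DESeq2 1.42.0 was an alternative. Same-numbered knockout-labelled and WT libraries deviated together at 8 weeks (correlations 0.226, 0.158 and 0.107, against -0.180 to 0.0387 for different numbers). Across times, same-numbered libraries correlated at 0.108, 0.0231 and 0.147 in WT and -0.0985, -0.0540 and -0.110 in knockout-labelled cells. At both times same-numbered knockout-labelled and WT libraries correlated more than those of different numbers, but the labels do not state a pairing. The main fit held no block, and the replicate number was a block in alternatives only. Members and lists were chosen with earlier results of these data known. Other named genes are those called in a pathway list and the 2 with the smallest p by genotype and by time. Libraries standing apart were judged from principal components of log2 CPM. No counts of reads were inferred from TPM. 1 gene named by the rule for like patterns is not reported here.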

Additional observations from a re-analysis of the deposited data

How the results depend on the processing

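Dnajb1 kept its direction by time in all 19 alternatives; of the single-gene values recomputed under other settings, 919 stayed on the same side of the threshold, 15 became called, 54 lost the call and 25 changed sign, and the cause was not tested. DESeq2 called 78 genes by genotype averaged over times, 33 at 20 weeks, 80 at 8 weeks, 1238 by time averaged over genotypes (3 members), 149 in knockout-labelled cells, 509 in WT cells (1 member) and 35 in the interaction. The main counts were 32, 8, 29, 419 (1 member), 9, 74 and 14. The thread number as a covariate gave 3 genes at 20 weeks, 75 by time (0 members) and 0 by time in knockout-labelled cells, and libraries of 8 threads gave 0 genes at 8 weeks and 0 by time in WT cells. Without both libraries that stood apart, 20 genes were called at 20 weeks, 983 by time (2 members), 59 in knockout-labelled cells, 156 in WT cells (1 member) and 27 in the interaction. Fitting 2 groups alone gave 17 genes at 20 weeks, 8 at 8 weeks, and by time 0 in knockout-labelled and 37 in WT cells.

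With the replicate number as a block over all libraries, 25, 6, 25, 332, 5, 49 and 10 genes were called in the order above, with 1 member by time. Same-numbered libraries at 20 weeks correlated at 0.0707, 0.0715 and 0.117, against -0.113 to 0.0464 for knockout-labelled and WT libraries of different numbers. The labels do not say whether same-numbered libraries share a host. 2 alternatives were chosen after seeing the data. The block within each time gave 19, 4 and 15 genes by genotype and 9 in the interaction, and changed no call of a member. Coding transcripts only gave 3 genes at 20 weeks, 238 by time and 7 in the interaction.

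Leaving out 1 library at a time gave 3 to 15 genes by genotype at 20 weeks, 15 to 36 at 8 weeks, 77 to 927 by time (0 to 2 members), 0 to 26 in knockout-labelled cells and 29 to 302 in WT cells (0 to 1 members). Among members it changed signs of genotype estimates averaged over times for Hspa1a (-2.27 to 2.67), Hspa1b (-0.79 to 1.85), Hsp90aa1 (-0.0585 to 0.45), Hspa5 (-0.0323 to 0.18), Xbp1 (-0.0179 to 0.16), Atf4 (-0.28 to 0.0713) and Ddit3 (-0.23 to 0.10), and of time estimates for Atf4 (-0.17 to 0.15) and Hsp90aa1 in WT cells (-0.30 to 0.0839). Without both libraries that stood apart the genotype estimates of Hsp90aa1 (-0.15, and -0.18 at 8 weeks), Xbp1 (-0.0495) and Ddit3 (0.16) and the interaction of Hsp90aa1 (0.0514) changed sign. So did Xbp1 by time in knockout-labelled cells with the thread covariate (-0.0353) and Hsp90aa1 by time in WT cells in libraries of 8 threads (0.12). Few reads limit Hspa1a and Hspa1b, and 3 libraries a group limit all tests.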
